A study of Mus musculus with 20 samples.

Results

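The circadian clock genes Dbp, Tef, Cry1, Cry2, Nr1d1, Nr1d2, Per1, Per2, Arntl and Clock were followed across hearts of old and young mice. The members were all probe sets whose only gene symbol in the platform annotation is 1 of these 10 names, which gave 12 probe sets of the 12422 on the array that are not controls, and 10 of 8251 named genes. A probe set is a group of short probes designed for 1 transcript, and its value here is a linear intensity. Of the 12 probe sets, 9 passed the filter on low values, 1 for each gene other than Per2. The 3 that did not were 93694_at of Per2 and a pair of dim Cry1 probe sets (161225_r_at and 94421_r_at).

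The study measured polyadenylated RNA of whole hearts, with 1 array per animal and 5 animals in each of 4 groups. In the mixed group, mice of 30 months had eaten alpha-tocopherol and gamma-tocopherol at 500 mg/kg each since 15 months of age. In the alpha-tocopherol group, mice of 30 months had eaten alpha-tocopherol at 1000 mg/kg since the same age. Old controls were 30 months and young controls 5 months old, both on the control diet. Tocopherols are forms of vitamin E. All 20 mice were males of a B6C3F1 cross and were housed singly, per the labels. The strain entry of old controls 1 and 4 names the same hybrid without the F1 mark. Each animal gave tissue at 1 time only, and the sources used here do not give the time of day. A difference between groups in these genes therefore cannot be told apart from a difference in collection time.

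The circadian clock is a loop of transcription and repression that turns about daily in nearly every cell, heart muscle included. The proteins of Clock and Arntl (also called Bmal1) pair on E-box sequences and drive the genes of the Period and Cryptochrome repressors, of the nuclear receptors Nr1d1 and Nr1d2 (REV-ERB alpha and beta), and of the output factors Dbp and Tef. Period and Cryptochrome proteins then block Clock and Arntl, while the REV-ERB receptors repress Arntl through elements named RORE. Messenger RNA of Dbp, Nr1d1 and the Period genes therefore peaks in another part of the day than that of Arntl.

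Promoter sequences from RefSeq (build GRCm38.p6) were matched to 9 of the 10 genes, in 14 windows that each run from 250 bases before to 50 bases after a start site. The E-box CACGTG stood in 4 windows, of Cry1, of Per1 and of both start sites of Tef, thus in 3 of the 9 matched genes, against 7.15% of all 32851 promoters in the table. Windows of 1 gene can overlap, so a count of windows can hold the same site more than once. The related letters CACGTT stood in 3 windows (Cry1, Cry2 and Nr1d1), against 4.68% of promoters. A RORE match stood in 1 window, at the second start site of Arntl, against 0.384% of promoters. The D-box letters that Dbp and Tef proteins are known to bind, TTATGTAA or TTACGTAA, stood in 0 of the 14 windows, against 1.06% of promoters. All motifs were searched on both strands, and the E-box and CACGTT matches do not overlap. These matches describe letters and no measured binding.

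Dbp and Cry1 differed from old controls with both supplements, Nr1d1 differed between the supplements, and Arntl is the gene repressed by Nr1d1. Below are the windows of these genes. Each is printed 5′ to 3′ on the strand of its gene, with the matches in capitals: an E-box and a CACGTT read on the opposite strand in Cry1, a CACGTT on the opposite strand in Nr1d1, a RORE in Arntl and no match in Dbp. They lie at chr7:45704997-45705296 (plus strand, Dbp), chr10:85185005-85185304 (minus strand, Cry1), chr11:98775328-98775627 (minus strand, Nr1d1) and chr7:113207261-113207560 (plus strand, Arntl, the second start site).
Dbp: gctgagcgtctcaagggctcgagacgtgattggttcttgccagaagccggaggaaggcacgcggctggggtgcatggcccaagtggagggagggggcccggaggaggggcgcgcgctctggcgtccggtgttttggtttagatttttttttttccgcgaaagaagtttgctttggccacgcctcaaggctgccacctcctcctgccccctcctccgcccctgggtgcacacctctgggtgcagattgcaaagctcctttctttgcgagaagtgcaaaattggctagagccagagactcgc
Cry1: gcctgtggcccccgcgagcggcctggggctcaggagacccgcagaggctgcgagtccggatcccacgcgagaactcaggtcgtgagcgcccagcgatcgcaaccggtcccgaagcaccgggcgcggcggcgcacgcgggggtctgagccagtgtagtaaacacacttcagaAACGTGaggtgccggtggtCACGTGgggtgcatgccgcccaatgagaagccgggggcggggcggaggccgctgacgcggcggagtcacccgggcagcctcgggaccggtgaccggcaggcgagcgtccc
Nr1d1: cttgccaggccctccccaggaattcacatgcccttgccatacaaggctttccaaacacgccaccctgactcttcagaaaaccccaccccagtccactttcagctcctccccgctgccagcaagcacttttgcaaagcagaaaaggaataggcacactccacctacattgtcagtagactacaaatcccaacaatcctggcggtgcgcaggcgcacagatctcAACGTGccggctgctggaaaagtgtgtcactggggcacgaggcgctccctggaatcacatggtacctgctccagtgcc
Arntl: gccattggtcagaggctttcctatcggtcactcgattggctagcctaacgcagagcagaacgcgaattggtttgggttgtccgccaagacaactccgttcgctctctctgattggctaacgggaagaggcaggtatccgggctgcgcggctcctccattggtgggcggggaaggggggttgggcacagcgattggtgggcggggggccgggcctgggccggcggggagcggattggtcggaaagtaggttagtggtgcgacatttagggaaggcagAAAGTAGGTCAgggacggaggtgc

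**Figure D1:**
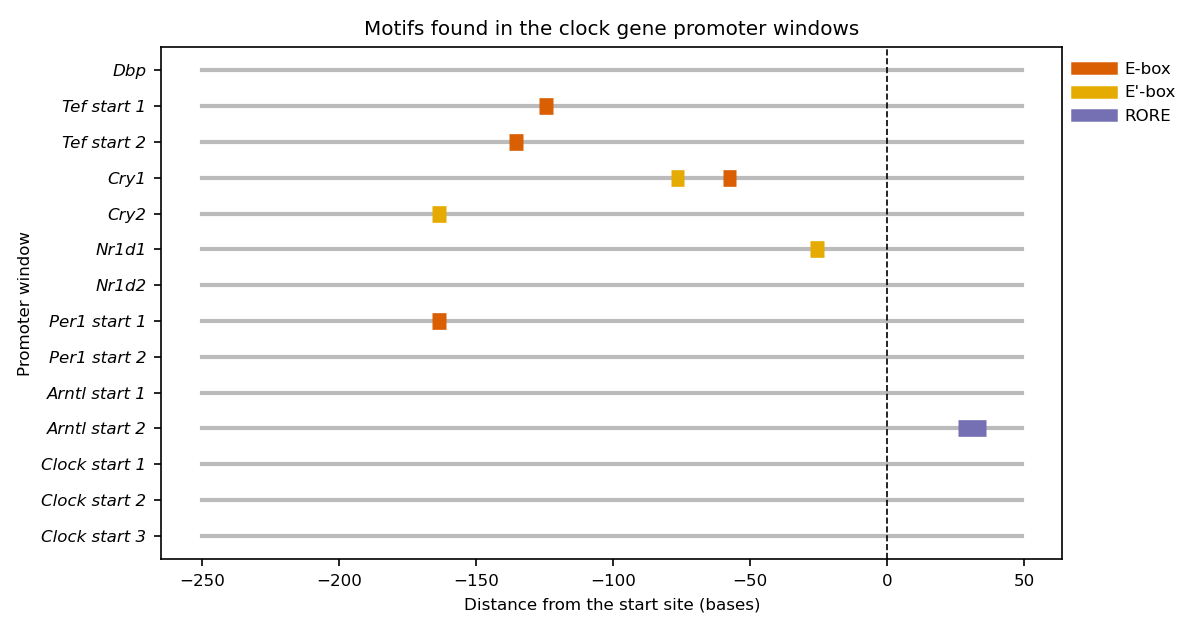
Motif matches in the 14 promoter windows of 9 clock genes, drawn by distance in bases from the start site (dashed line). Each grey line is 1 window, and coloured blocks are E-box, E′-box (CACGTT) and RORE matches. Cry1 holds an E-box and an E′-box before its start site, and the RORE of Arntl lies 26 to 36 bases after its second start site.

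Array facts that touch the results are these. The heart muscle markers were bright on all arrays, with all 7 measured genes above the filter in each group. The bacterial hybridization controls, which are added to every sample, read 0.85 higher (log2) on alpha-tocopherol arrays than on old control arrays, and the 18S ribosomal RNA signal 1.66 higher, with no overlap for either (two-sided exact permutation p = 0.0079 each, the smallest p that 5 against 5 arrays allow). On mixed arrays they read 0.28 (exact permutation p = 0.16) and 0.52 higher (exact permutation p = 0.26) than on old control arrays. On alpha-tocopherol arrays they also read 0.77 and 1.84 higher than on young control arrays, with no overlap (two-sided exact permutation p = 0.0079 each). Their part in the alpha-tocopherol calls of Nr1d1, Nr1d2 and Per1 against young controls was not tested. Young control 3 stood apart with a summed T cell marker intensity of 29181, against a median of 2585 in young controls. In old control 3 the 3′ Gapdh signal exceeded the 5′ signal by 1.21 (log2), against -0.17 to 0.19 on the other arrays.

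Dbp and Cry1 were the members that differed from old controls with both supplements, and they did so in opposite directions. Both comparisons use the same old controls, so they are not independent. Dbp was 2.76-fold lower with the mixed diet and 2.54-fold lower with alpha-tocopherol, and Cry1 was 1.88-fold and 1.70-fold higher. Nr1d2 fell with alpha-tocopherol, and Nr1d1 was lower with the mixed diet than with alpha-tocopherol. All 3 alpha-tocopherol calls and the Nr1d1 call were lost with either array control signal as a covariate. Those signals did not overlap between the groups compared, so these fits can hardly tell diet and signal apart. With age alone, no member passed the test across all probe sets. Differences are of log2(intensity + 58), tested with limma over 7453 probe sets, with Benjamini-Hochberg adjusted p-values called below 0.05.

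**Figure D2:**
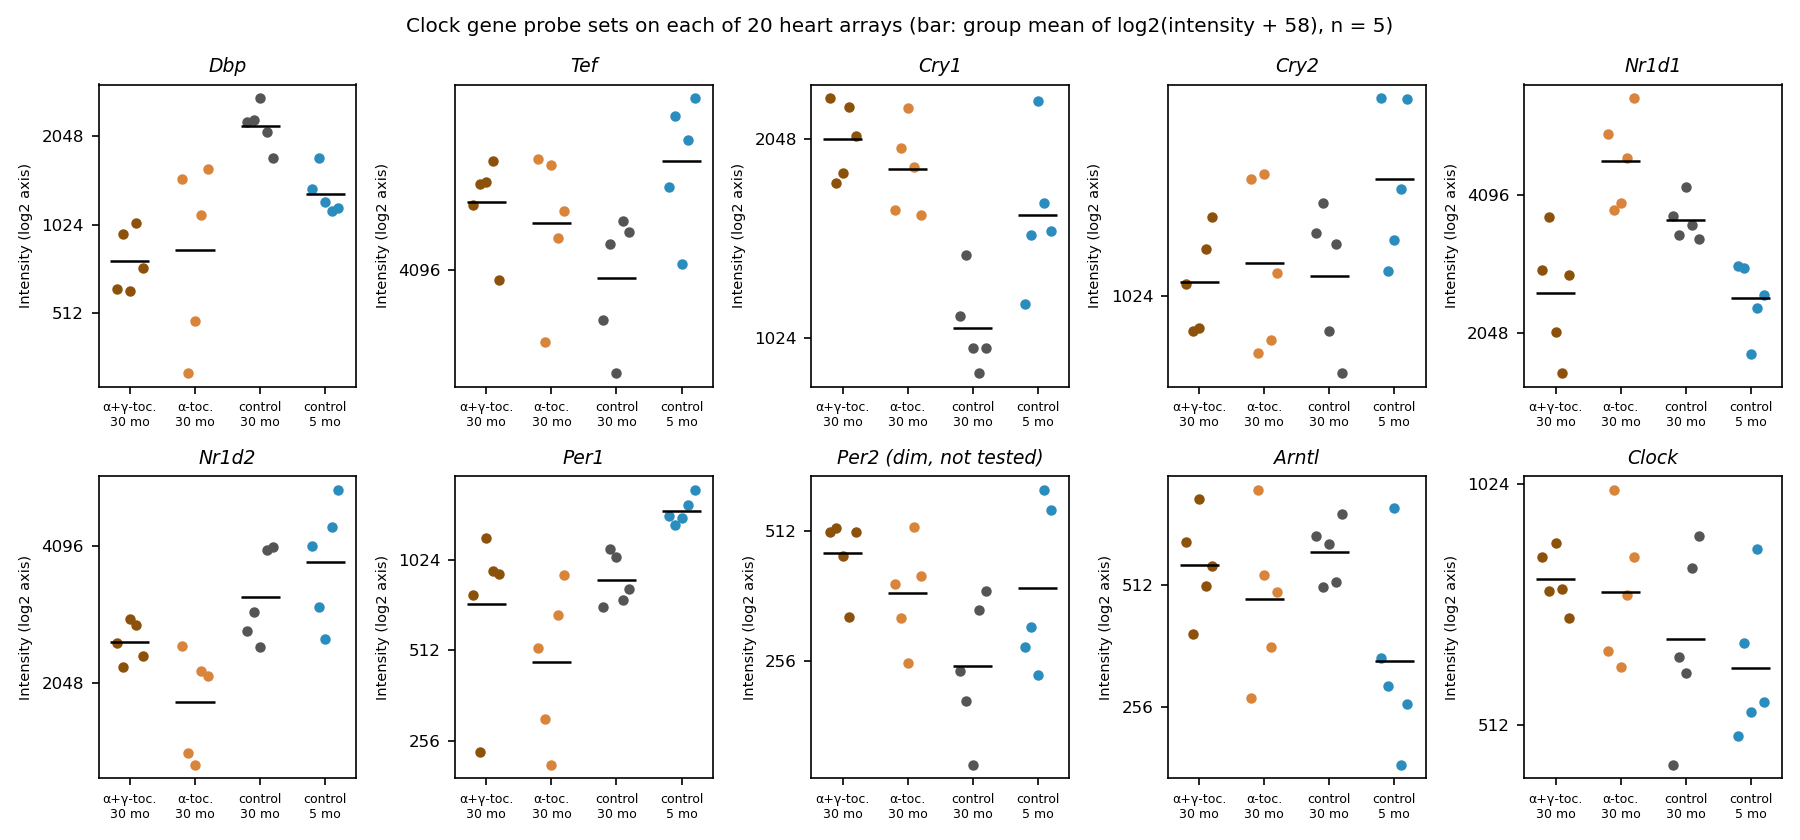
Intensity (log2 axis) of the brightest probe set of each clock gene on every array, in the order mixed diet, alpha-tocopherol, old control and young control. Points are animals and bars are back-transformed group means of log2(intensity + 58), n = 5 each. All Dbp points of both supplemented groups lie below the old control points, and all their Cry1 points lie above them.

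Dbp encodes a PAR bZIP transcription factor, an output of the clock that activates D-box genes. Dbp intensity (160841_at) was 614, 951, 604, 1036 and 726 in mixed hearts, 1466, 318, 477, 1104 and 1584 in alpha-tocopherol hearts, 2286, 2330.1, 2768, 2118 and 1730.0 in old controls, and 1349.9, 1726, 1226, 1139.9 and 1165 in young controls. All old controls lay above all other hearts, and alpha-tocopherol hearts were the most spread group (SD of 0.95 on the log2 scale, against 0.33 in mixed hearts, 0.24 in old controls and 0.23 in young controls). The difference from old controls was -1.46 ± 0.30 (log2, SE) with the mixed diet (limma adjusted p = 0.00614) and -1.34 ± 0.30 with alpha-tocopherol (limma adjusted p = 0.00305). The diets themselves differed by -0.12 (95% interval -0.74 to 0.50). Old controls were 0.74 ± 0.30 above young controls with no overlap, which did not pass across all probe sets (limma adjusted p = 0.178). Against young controls Dbp was -0.72 with the mixed diet (limma adjusted p = 0.174) and -0.60 with alpha-tocopherol (limma adjusted p = 0.182). In order of mean log2 level the groups ran from old control (11.15) over young control (10.41) and alpha-tocopherol (9.81) to mixed diet (9.69), and no pair of neighbours in that order passed the test. In bulk tissue, fewer cells of a type and less RNA per cell cannot be told apart.

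Tef encodes a second PAR bZIP factor. The intensity of its probe set 160117_at, whose mean lay at percentile 91.3 of all probe sets, ranged from 3979 to 5659 in mixed hearts, 3308 to 5688 in alpha-tocopherol hearts, 3023 to 4733 in old controls and 4169.7 to 6806 in young controls. The groups overlapped. Differences from old controls were 0.32 ± 0.16 with the mixed diet (limma adjusted p = 0.235) and 0.23 ± 0.16 with alpha-tocopherol (limma adjusted p = 0.31), and old controls were -0.49 ± 0.16 from young controls (limma adjusted p = 0.0758). Tef, known like Dbp as a clock output, thus gave no call in any comparison of the main fit. Its age difference was called with array weights (-0.53, limma adjusted p = 0.0137) and without young control 3 (-0.60, limma adjusted p = 0.0264). The Tef estimates against old controls and for age had the opposite sign to those of Dbp.

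Cry1 and Cry2 encode the cryptochromes, the strongest repressors of the Clock and Arntl pair. The intensity of the bright Cry1 probe set (94420_f_at) was 2359, 1758, 1817, 2292 and 2067 in mixed hearts, 1600.5, 1980.5, 2284, 1857 and 1568 in alpha-tocopherol hearts, 1104, 1366, 987, 905 and 988 in old controls, and 1153, 1462, 2334, 1636 and 1485 in young controls. Every supplemented heart lay above every old control. Cry1 rose by 0.91 ± 0.16 with the mixed diet (limma adjusted p = 0.0018) and by 0.76 ± 0.16 with alpha-tocopherol (limma adjusted p = 0.00172). Old controls were -0.54 ± 0.16 from young controls, just outside the threshold (limma adjusted p = 0.0501), and the value passed in several alternative settings listed under the dependence on processing. Against young controls Cry1 was 0.37 (95% interval 0.04 to 0.70, limma adjusted p = 0.195) with the mixed diet and 0.22 (-0.11 to 0.55, limma adjusted p = 0.371) with alpha-tocopherol. The suffix f marks a probe set whose probes are shared within a family of sequences, so related transcripts may add to it. The dim probe set 94421_r_at read 10.1 to 145 in mixed hearts, 19.5 to 178 in alpha-tocopherol hearts, 7.4 to 45.4 in old controls and 7.6 to 122 in young controls, with overlap. With no filter on low values its alpha-tocopherol difference was 1.08 ± 0.35 (limma adjusted p = 0.0466), and its mixed diet difference 0.65 ± 0.35 (limma adjusted p = 0.344). The other dim probe set, 161225_r_at, read 1.9 to 80.7 on all arrays and had estimates of the opposite sign to 94420_f_at, at -0.40 ± 0.23 with the mixed diet (limma adjusted p = 0.361) and -0.18 ± 0.23 with alpha-tocopherol (limma adjusted p = 0.628).

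Cry2 (97724_at) ranged from 932 to 1258 in mixed hearts, 879.8 to 1409 in alpha-tocopherol hearts, 835 to 1305 in old controls and 1092 to 1721 in young controls. Its differences from old controls were -0.02 (95% interval -0.37 to 0.33) with the mixed diet and 0.05 (-0.31 to 0.40) with alpha-tocopherol. Old controls were -0.35 from young controls (95% interval -0.70 to 0.00, limma adjusted p = 0.278). No Cry2 difference passed.

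Per1 and Per2 encode Period proteins, which form repressor complexes with cryptochromes. Per1 intensity (93619_at) was 780.3, 235, 1209.8, 942 and 921 in mixed hearts, 519.9, 301, 213, 674 and 914 in alpha-tocopherol hearts, 716, 1112, 1045, 756 and 821 in old controls, and 1438, 1342, 1414, 1562 and 1756 in young controls. All young controls lay above all hearts of 30 months. Old controls were -0.73 ± 0.33 from young controls without passing the test (limma adjusted p = 0.238), while alpha-tocopherol hearts were -1.56 ± 0.33 from young controls and passed it (limma adjusted p = 0.00294), in a comparison that called 15.6% of tested probe sets. Mixed hearts were -0.98 ± 0.33 from young controls (limma adjusted p = 0.0865), where 5.55% of probe sets were called. Against old controls Per1 did not pass with either diet, at -0.25 ± 0.33 with the mixed diet (limma adjusted p = 0.707) and -0.83 ± 0.33 with alpha-tocopherol (limma adjusted p = 0.0751). Without alpha-tocopherol animal 5 that value was -1.05 and was called (limma adjusted p = 0.0289).

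Per2 (93694_at) lay just under the filter, with a mean log2 of 8.69 where probe sets above 8.72 were tested. Its intensity was 509, 520.0, 449, 324 and 509 in mixed hearts, 386, 321, 253, 524 and 403 in alpha-tocopherol hearts, 243, 207, 147, 335 and 371 in old controls, and 276, 306, 238, 639 and 573 in young controls. In a fit with no filter the mixed diet gave 0.74 ± 0.28 against old controls (limma adjusted p = 0.15) and alpha-tocopherol 0.47 ± 0.28 (limma adjusted p = 0.275), so Per2 did not pass either.

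Nr1d1 encodes REV-ERB alpha. Nr1d1 intensity (98507_at) was 2809.8, 3666, 2056, 1677 and 2741 in mixed hearts, 5547, 3793, 3924, 4934 and 6640.5 in alpha-tocopherol hearts, 3677, 3353, 4263, 3528 and 3278 in old controls, and 2864, 2843, 1842, 2328 and 2480.3 in young controls. All mixed hearts lay below all alpha-tocopherol hearts, with 3793 the lowest alpha-tocopherol value and 3666 the highest mixed value. The mixed diet was -0.94 ± 0.18 from alpha-tocopherol, 1.92-fold lower (limma adjusted p = 0.0308). Neither diet passed against old controls, at -0.52 ± 0.18 with the mixed diet (limma adjusted p = 0.0869) and 0.43 ± 0.18 with alpha-tocopherol (limma adjusted p = 0.0926). With array weights estimated from the data both were called, at -0.49 ± 0.16 with the mixed diet (limma adjusted p = 0.0477) and 0.49 ± 0.17 with alpha-tocopherol (limma adjusted p = 0.0353), and the mixed diet value was also called without mixed animal 2 (-0.65 ± 0.17, limma adjusted p = 0.0392). Old controls lay above young controls with no overlap, by 0.55 ± 0.18 (limma adjusted p = 0.0795). Alpha-tocopherol hearts were 0.98 ± 0.18 above young controls (limma adjusted p = 0.000897), and mixed hearts 0.03 (95% interval -0.34 to 0.41).

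The Nr1d1 level varied together with the 18S signal of the array within groups. Among mixed hearts, animals 3 and 4 had the lowest 18S signals (10.76 and 9.90 on the log2 scale, against 11.73 to 11.98 in the other 3) and the lowest Nr1d1. Over the 20 arrays, deviations of Nr1d1 from its group means had a Pearson r of 0.696 with those of 18S (permutation p = 0.00203, adjusted 0.0572 over 36 relations of 9 genes with 4 array measures) and a Spearman rho of 0.705 (permutation p = 0.00117, adjusted 0.0421). Without the 2 arrays farthest from the median of 18S r was 0.578. Both the 18S and the hybridization control signals were lower in mixed than in alpha-tocopherol hearts, by -1.14 and -0.57 with no overlap (two-sided exact permutation p = 0.0079 each). With the 18S level as a covariate the difference between the diets was -0.49 ± 0.18 (limma adjusted p = 0.523) and with the hybridization controls -0.93 ± 0.25 (limma adjusted p = 0.163). Without mixed animal 3 or 4, or alpha-tocopherol animal 1, 3, 4 or 5, it ranged from -1.02 to -0.80 and was no longer called.

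Nr1d2 encodes REV-ERB beta, the paralog of Nr1d1. Nr1d2 intensity (99076_at) was 2508, 2210.3, 2829, 2739.5 and 2348 in mixed hearts, 2462, 1430.2, 1351, 2167 and 2115 in alpha-tocopherol hearts, 2658, 2931, 2458, 4016 and 4074 in old controls, and 4094, 3003, 2558, 4498 and 5443 in young controls. Of the alpha-tocopherol hearts, 4 lay below every old control, and animal 1 just above the lowest. Nr1d2 fell by 0.75 ± 0.20 on the log2 scale with alpha-tocopherol against old controls (limma adjusted p = 0.00892) and was -1.01 ± 0.20 from young controls with no overlap (limma adjusted p = 0.00145). The comparison with young controls called 15.6% of tested probe sets, and the part of the array control signals in it was not tested. The call against old controls was lost with the 18S level as a covariate, where the value was -0.25 (limma adjusted p = 0.676), and with the hybridization controls, where it was -1.10 (limma adjusted p = 0.0841). With the mixed diet it was -0.32 ± 0.20 from old controls (limma adjusted p = 0.344), and the diets differed by 0.43 ± 0.20 (limma adjusted p = 0.288), so a difference between the diets was not shown. With age the value was -0.26 ± 0.20 (limma adjusted p = 0.562). Within groups, Nr1d2 deviations had a Pearson r of -0.48 with those of 18S (permutation p = 0.00318, adjusted 0.0572) and a Spearman rho of -0.499 (permutation p = 0.0071, adjusted 0.0852), and r was -0.498 without the 2 arrays farthest from the median of 18S.

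Arntl and Clock encode the activating pair. Arntl (102382_at) ranged from 389 to 830.1 in mixed hearts, 270.2 to 876 in alpha-tocopherol hearts, 506 to 766 in old controls and 185 to 791 in young controls. In young controls animal 3 had 791 and the other 4 had 185 to 339, all below the old controls. Old controls were 0.78 ± 0.31 from young controls (limma adjusted p = 0.156). Without young control 3, the animal with the high T cell markers, Arntl was 1.06 (limma adjusted p = 0.0275) and Tef -0.60 (limma adjusted p = 0.0264), both called. Against old controls Arntl was -0.09 (95% interval -0.73 to 0.54) with the mixed diet and -0.34 (-0.98 to 0.29) with alpha-tocopherol. Clock (92257_at) ranged from 697 to 864 in mixed hearts, 604 to 1006 in alpha-tocopherol hearts, 457 to 879.8 in old controls and 496 to 849 in young controls. Its differences ran from 0.05 to 0.23 in the 4 main comparisons, and none passed.

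**Figure D3:**
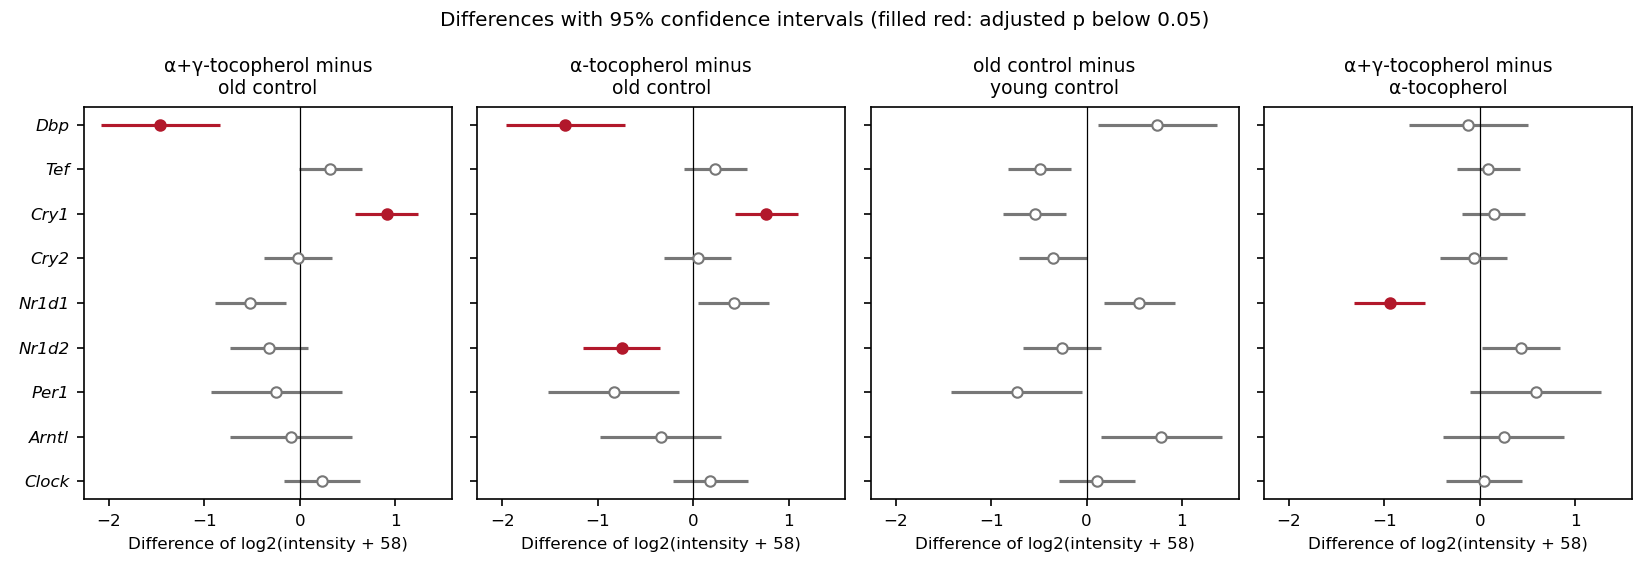
Differences of log2(intensity + 58) with 95% confidence intervals for the 9 tested clock probe sets in 4 comparisons, each panel naming its first group minus its second. Filled red points passed the limma test across 7453 probe sets. Dbp and Cry1 passed with both diets on opposite sides of 0, Nr1d2 with alpha-tocopherol and Nr1d1 between the diets.

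Counted over the 9 tested members, 2 were called with the mixed diet, 1 higher and 1 lower, where 6.43% of all tested probe sets were called (2.67% higher and 3.76% lower). Under an unadjusted p of 0.05 lay 3 members and 22.9% of probe sets. With alpha-tocopherol 3 of 9 were called, 1 higher and 2 lower, against 21.7% of all tested (8.94% higher and 12.8% lower), a share that was already high in the background. Under an unadjusted p of 0.05 lay 5 members and 35.5% of probe sets. Between the diets 1 of 9 was called, lower in mixed hearts, against 0.564% of all tested (0.309% higher and 0.255% lower), with 2 members and 15.9% of probe sets under an unadjusted p of 0.05. The median difference over the members was -0.09 with the mixed diet, 0.05 with alpha-tocopherol and 0.09 between the diets, against -0.01, -0.02 and 0.01 over all tested probe sets.

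For age, 0 of 9 members were called by limma where 4.94% of all tested probe sets were (2.74% higher and 2.2% lower). Under an unadjusted p of 0.05 lay 6 of the 9 (Dbp, Nr1d1 and Arntl with higher means in old controls, Tef, Cry1 and Per1 with lower ones), against 18% of probe sets. Another fit changed this count: limma on the 10 control arrays alone called 3 members. They were Dbp (limma adjusted p = 0.0111), Per1 (limma adjusted p = 0.0112) and Nr1d1 (limma adjusted p = 0.0275). The share of all probe sets called in that fit is not given here, and the 4.94% does not apply to it. Control groups of these genes do not overlap, but this was read from the same arrays and is not independent of the fit. The median difference over the members was -0.26, against 0.01 over all tested probe sets.

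The alpha-tocopherol calls were lost with the array controls as covariates. Both signals separated alpha-tocopherol from old control arrays with no overlap, so these fits can hardly tell diet and signal apart. The errors grew, and no conclusion is drawn from the loss of a call. Fitted with the hybridization controls as a covariate, Dbp was -1.30 ± 0.53 (limma adjusted p = 0.195), Cry1 1.03 ± 0.28 (limma adjusted p = 0.056) and Nr1d2 -1.10 ± 0.34. With the 18S level they were -1.51 ± 0.48 (limma adjusted p = 0.106), 0.81 ± 0.25 (limma adjusted p = 0.102) and -0.25 ± 0.28. Estimates of Dbp and Cry1 were thus at least as large or nearly so with larger errors, and that of Nr1d2 was smaller with the 18S level. Mixed and old control arrays, in contrast, overlapped in both signals. The mixed diet results passed with either covariate: Dbp was -1.45 ± 0.34 with the hybridization controls (limma adjusted p = 0.0239) and -1.52 ± 0.33 with 18S (limma adjusted p = 0.012), and Cry1 was 1.00 ± 0.18 (limma adjusted p = 0.00394) and 0.93 ± 0.17 (limma adjusted p = 0.0049). Nr1d1 with the mixed diet was -0.72 ± 0.15 with the 18S covariate and was then called (limma adjusted p = 0.00932).

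**Figure D4:**
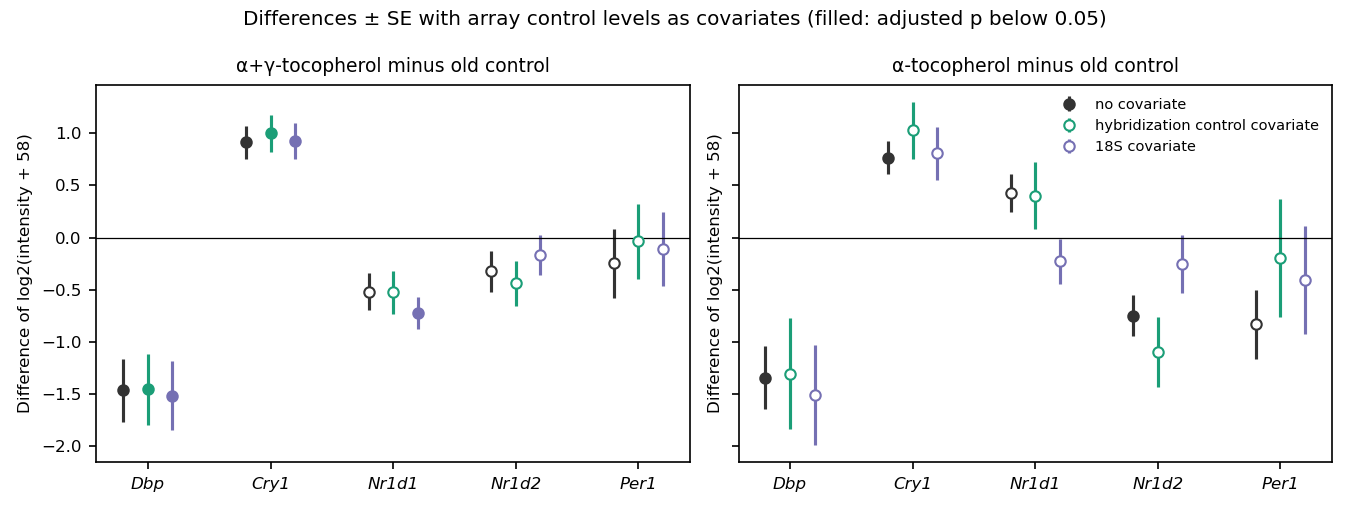
Differences from old controls ± SE of log2(intensity + 58) for 5 clock genes, fitted with no covariate, with the hybridization control level and with the 18S level. Filled points were called at an adjusted p below 0.05. With the mixed diet Dbp and Cry1 stayed called in all 3 fits, and with alpha-tocopherol neither was called with a covariate.

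Markers of other cell types moved in the same comparisons, counted here by limma calls. Of all tested probe sets, 6.43% were called with the mixed diet, 21.7% with alpha-tocopherol and 4.94% with age. Of 8 fibroblast markers, 4 fell and 1 rose with the mixed diet, and 5 fell and 1 rose with alpha-tocopherol, while their summed intensity ranged from 50302 to 79401 in mixed hearts, 54882 to 85123 in alpha-tocopherol hearts, 68724 to 75103 in old controls and 63697 to 81924 in young controls. Of 6 tested macrophage and myeloid markers, 1 fell with the mixed diet and 3 with alpha-tocopherol, with the 8 measured genes summing to 13206 to 26459, 13323 to 23923, 24301 to 26958 and 18907 to 28538 in the same order of groups. Of 8 endothelial markers, 3 fell with the mixed diet and 2 with alpha-tocopherol, and 2 rose with age. The endothelial sums were 24433 to 28418 in mixed hearts, 23398 to 28918 in alpha-tocopherol hearts, 27957 to 33466 in old controls and 22838 to 30391 in young controls. Of 5 tested smooth muscle markers, 1 fell with the mixed diet, 2 fell and 1 rose with alpha-tocopherol, and 1 fell with age, with the 6 measured genes summing to 11096 to 16591, 13078 to 18663, 17915 to 19754 and 14023 to 21484 in the same order. Both the rise with alpha-tocopherol (0.41) and the fall with age (-0.53) were those of Des. Acta2, Myh11, Tagln and Smtn had age estimates from 0.07 to 0.49, none of them called. Of 5 tested skeletal muscle markers, 1 rose with the mixed diet and 3 with alpha-tocopherol, with sums of 13882 to 18425, 16499 to 18319, 11853 to 17829 and 12239 to 16309 over 8 genes. Liver transcripts, among them Alb and Ahsg, summed to 927 to 1840.2 in mixed hearts, 875 to 1807 in alpha-tocopherol hearts, 3266 to 18835 in old controls and 1953 to 9543 in young controls over 6 genes, and Alb and Ahsg fell with both diets. Of 7 cardiomyocyte markers, 3 rose and 1 fell with alpha-tocopherol and 1 rose with age, and of 2 tested T cell markers limma called 0 in the 4 main comparisons, also at an unadjusted p below 0.05. The fibroblast marker that rose was Col1a2. Of the 2 tested probe sets each of Col1a2, Pdgfra and C1qb, 1 had the opposite sign to the called one with alpha-tocopherol. For Col1a2 this also held with the mixed diet. No marker was listed at 0, and the part of these cell types in the clock gene differences was not tested. Nor was the part of the hybridization control and ribosomal RNA signals in the alpha-tocopherol calls of these markers tested.

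Within the alpha-tocopherol group the same animals held the extremes of several members. Animals 2 and 3 had the lowest Dbp (318 and 477), Per1 (301 and 213), Nr1d2 (1430.2 and 1351) and Nr1d1 (3793 and 3924) of the 5, and the highest Arntl (876 and 541) and Cry1 (1980.5 and 2284). Animals 2 and 3 split on other members, with Tef at 3308 and 5582, Cry2 at 879.8 and 1409 and Clock at 1006 and 604. Of these, Tef and Cry2 were the lowest of the group in animal 2, and Clock was the lowest in animal 3. Young control 3 had the highest Arntl and Cry1 of its group and the lowest Nr1d1, Nr1d2 and Tef. Its Dbp (1226) was the median of its group, and its Per1 (1414) was not the lowest. These animals were singled out after their values were seen, and no test was made of the pattern.

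Across all 20 arrays, deviations from the group means were compared for the 36 pairs of the 9 genes by two-sided permutation within groups. No pair passed after Benjamini-Hochberg adjustment, and 9 had an unadjusted p below 0.05. Cry1 and Nr1d1 had the smallest p (Pearson r = -0.614, permutation p = 0.00436, adjusted 0.157, Spearman rho = -0.656, permutation p = 0.0056, adjusted 0.202), with r of -0.538 without the 2 arrays farthest from the median of Cry1. For Dbp and Arntl r was -0.537 (permutation p = 0.0287, adjusted 0.172) and rho -0.552 (permutation p = 0.034, adjusted 0.266), with r of -0.477 without the 2 farthest arrays. For Dbp and Nr1d1 r was 0.543 (permutation p = 0.0365, adjusted 0.187) and rho 0.532 (permutation p = 0.0381, adjusted 0.266), with r of 0.369 without the 2 farthest. For Tef and Arntl r was -0.608 (permutation p = 0.0136, adjusted 0.172) and rho -0.459 (permutation p = 0.0753, adjusted 0.339), and r was -0.271 without the 2 farthest arrays, so that this relation rests on them. The other 5 pairs under 0.05 were Tef and Nr1d2 (r = 0.597, permutation p = 0.019), Nr1d2 and Per1 (r = 0.442, permutation p = 0.0242), Cry2 and Clock (r = -0.567, permutation p = 0.0277), Cry1 and Nr1d2 (r = -0.531, permutation p = 0.047) and Nr1d2 and Arntl (r = -0.535, permutation p = 0.047), with adjusted p of 0.172 for the first 3 and 0.187 for the last 2. Their rho was 0.571, 0.398, -0.641, -0.459 and -0.517 in the same order (permutation p = 0.034, 0.0901, 0.0132, 0.0752 and 0.0443, adjusted 0.266, 0.36, 0.237, 0.339 and 0.266), and r was 0.423, 0.365, -0.488, -0.415 and -0.371 without the 2 farthest arrays. After the hybridization control and 18S levels were also removed, r was -0.777 for Cry1 and Nr1d1, the only pair that then passed. The pairs that moved most were Nr1d1 and Nr1d2, with r of 0.751 against 0.136 before the adjustment, and Tef and Nr1d1, with 0.582 against 0.07, while Dbp and Nr1d1 had 0.706 against 0.543.

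**Figure D5:**
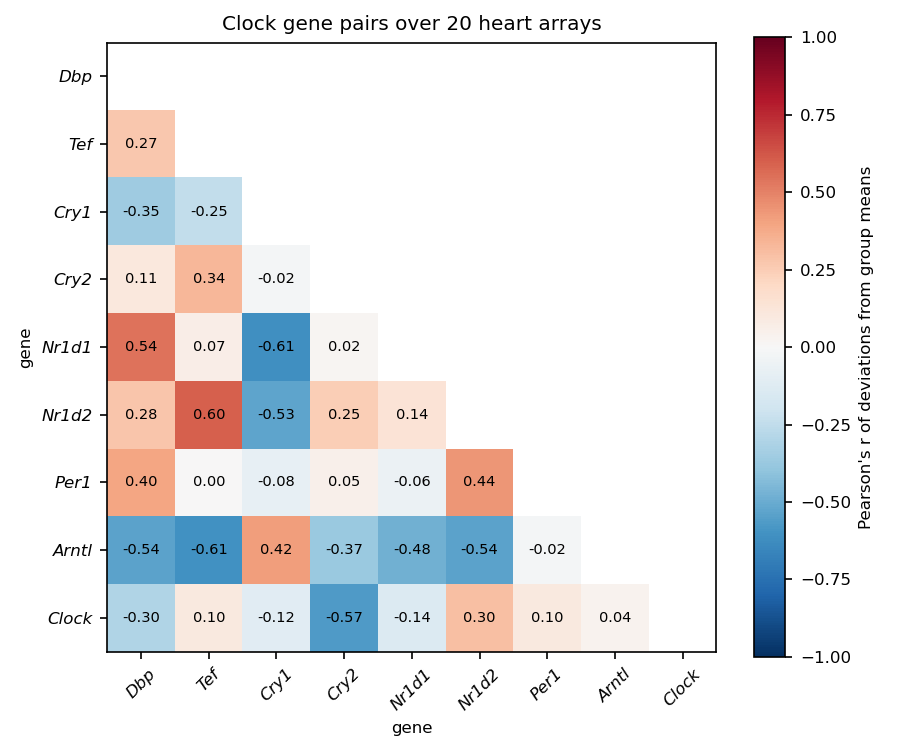
Pearson's r of deviations from group means for the 36 pairs of 9 clock genes over 20 arrays, in blue below 0 and in red above 0. Arntl has negative r with Dbp, Tef, Nr1d1 and Nr1d2, and Cry1 has negative r with Nr1d1 and Nr1d2, and no pair passed after adjustment.

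The genes whose deviations were most like those of Dbp over the 20 arrays were Slc25a51 (Pearson r = 0.819), Tax1bp1 (0.797), Rpia (0.745), Birc2 (0.742) and Gm17811 (0.733). Most like Arntl were St6gal1 (0.773), Traf6 (0.752), Entr1 (0.734), Atp6v1b2 (0.719) and Mtmr14 (0.717). These are the highest of all tested named genes, the arrays share groups and processing, and no test was made.

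Other genes of the clock loop were sparse on the array, with 6 of 12 listed symbols present and 5 tested. With age 1 of the 5 was called, against 4.94% of all tested probe sets, and with alpha-tocopherol 2 of the 5, against 21.7%. Bhlhe40 (DEC1, a repressor that binds E-boxes) rose by 0.60 ± 0.16 with age (limma adjusted p = 0.0278) and was -0.62 ± 0.16 with alpha-tocopherol against old controls (limma adjusted p = 0.00758). Nfil3 (E4BP4, a repressor that binds the same D-boxes as Dbp) rose by 0.64 ± 0.17 with alpha-tocopherol with no overlap (limma adjusted p = 0.0117, probe set 101805_f_at). The hybridization control and ribosomal RNA signals also differed between alpha-tocopherol and old control arrays. Their part in the calls of Bhlhe40 and Nfil3 in that comparison was not tested. With the mixed diet 0 of the 5 were called by limma (1 at an unadjusted p below 0.05), and 0 between the diets (0 unadjusted).

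Of 18 kinases, phosphatase subunits and ubiquitin ligases that act on clock proteins, 11 were tested. With alpha-tocopherol 4 were called lower and 1 higher, where 12.8% and 8.94% of all tested probe sets were, and 7 of the 11 had an unadjusted p below 0.05, against 35.5% of probe sets. By the same test limma called 0 with the mixed diet (3 at an unadjusted p below 0.05), 0 with age (0 unadjusted) and 0 between the diets (4 unadjusted). The casein kinases that phosphorylate Period proteins had differences of -0.56 ± 0.19 (Csnk1e, limma adjusted p = 0.0382), -0.39 ± 0.11 (Csnk1d, limma adjusted p = 0.0161) and -0.41 ± 0.14 (Csnk1a1, limma adjusted p = 0.044) with alpha-tocopherol against old controls. Of the 3 tested probe sets of Csnk1d, 1 had the opposite sign. Csnk2a1, a catalytic subunit of casein kinase 2, rose by 0.55 ± 0.15 (limma adjusted p = 0.0118), and 1 of its 4 tested probe sets had the opposite sign. The remaining call was Gsk3a, named after its value was seen, at -0.36 ± 0.08 (limma adjusted p = 0.00354). The median over these 11 genes was -0.22, against -0.02 over all tested probe sets. The hybridization control and 18S signals differed in the same comparison, and their part in the calls of these genes outside the 10 was not tested.

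Of 20 genes known from mouse tissues to vary with the time of day, 15 were tested. With the mixed diet 2 rose and 3 fell, where 6.43% of all tested probe sets were called. With alpha-tocopherol 1 rose and 2 fell, a share near the background of 21.7%. With age 2 rose and 4 fell, where 4.94% of probe sets were called, and between the diets 0 were called by limma (4 at an unadjusted p below 0.05). The list was chosen with earlier results of these data known. Its counts therefore cannot show an excess over the share of all probe sets. Alas1, the rate-limiting enzyme of heme synthesis (heme is the ligand of the REV-ERB receptors), differed from old controls by -0.63 ± 0.10 with the mixed diet (limma adjusted p = 0.000744) and by -0.49 ± 0.10 with alpha-tocopherol (limma adjusted p = 0.0012), and old controls were 1.16 ± 0.10 above young controls (limma adjusted p = 1.31e-07). Its signs were those of Dbp in all 3 comparisons. The largest age differences of the list were those of Pdk4, a kinase that inhibits pyruvate dehydrogenase, at -2.84 ± 0.29 (limma adjusted p = 1.77e-06), and of Ucp3, a mitochondrial carrier, at -2.01 ± 0.19 (limma adjusted p = 3.85e-07). With the mixed diet Pdk4 rose by 1.00 ± 0.29 (limma adjusted p = 0.0426), while Ucp3 was lower again, at -0.69 ± 0.19 (limma adjusted p = 0.028), so that its diet and age values had the same sign. Cirbp, a cold-inducible RNA-binding protein that follows the daily cycle of body temperature, was -0.63 ± 0.14 with age (limma adjusted p = 0.0109) and was not called with a diet. Pnpla2, the adipose triglyceride lipase, rose by 0.85 ± 0.14 with the mixed diet (limma adjusted p = 0.00148) and by 1.11 ± 0.14 with alpha-tocopherol (limma adjusted p = 2.16e-05), and was -1.13 ± 0.14 with age (limma adjusted p = 4.53e-05). Slc2a4, the insulin-responsive glucose transporter, was -0.40 ± 0.09 with the mixed diet (limma adjusted p = 0.0147), -0.53 ± 0.09 with alpha-tocopherol (limma adjusted p = 0.000405) and 0.50 ± 0.09 with age (limma adjusted p = 0.00246). Cirbp and the mixed diet and age values of Slc2a4 were added after they were seen. The age comparison and both diet comparisons share the old controls, so these signs are not independent. Alpha-tocopherol and old control arrays also differed in the hybridization control and ribosomal RNA signals. The part of these signals in the alpha-tocopherol calls of this list was not tested.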

How the data were processed

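The authors' deposited table gives 1 linear intensity per probe set for each of 20 heart arrays. The sources used here do not name the scanner software, and from the values the arrays share nearly the same trimmed mean. This scaling was kept. A pseudocount of 58, the 10th percentile of the table, was added before taking log2, which understates changes of dim probe sets. The dimmest 40% of probe sets by overall mean and 66 control probe sets were left out, leaving 7453. The 4 group means were fitted on all 20 arrays by limma's lmFit and moderated with eBayes, using its trend and robust options (limma 3.58.1, R 4.3.3, 16 residual degrees of freedom), two-sided, with Benjamini-Hochberg adjustment and calls below 0.05. The number of arrays limits the precision. Pairs of members were compared by 100000 permutations within groups. Exact permutation tests compared array measures between groups.

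The replicate numbers did not mark pairs: same-numbered arrays of the groups compared had correlations of deviations of at most 0.10. Genes were named from the platform annotation, of which 10833 of 12422 probe sets had 1 symbol. All member probe sets are named, and from other lists called genes, at most 4 per list and comparison by the size of the difference. Exceptions are the values of Gsk3a, Cirbp and Slc2a4 that are marked above as added after they were seen. The genes most like Dbp and Arntl are the 5 with the highest r. The members, the lists and the tests were chosen with earlier results of these data known. Counts set beside the share of all probe sets are therefore descriptions and test no excess. Alternatives covered the pseudocount, filter, scaling, variance model, array weights, 2 array covariates, omitted animals and a replicate block. The steps were tested on simulated data.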

Additional observations from a re-analysis of the deposited data

Results flagged for a closer look

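The Per1 intensity of mixed diet animal 2 was 234.9, far below the other 4 mixed hearts (780.3 to 1209.8), with a gap to the nearest animal of 0.718 of the group's range on the scale of log2(intensity + 58). It was the 1 array found among 48 groups of 5 examined, and chance alone would give about 1 in 20 groups. Without that animal the Per1 difference of the mixed diet from old controls was 0.11, against -0.25 with it.

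The effect of the mixed diet on Nr1d1 minus that of alpha-tocopherol was -0.9425 (log2), which passed the limma test of the difference itself (adjusted p = 0.0308). All 5 mixed hearts lay below all 5 alpha-tocopherol hearts. The 18S and hybridization control signals of the arrays differed in the same comparison, and with the 18S level as a covariate the value was -0.49.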

How the results depend on the processing

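With age, the count of 0 called members became 1 with a pseudocount of 16, quantile normalization, median centring or the hybridization covariate (Cry1 each time), 1 without young control 3 and old control 3 (Arntl), 2 with array weights (Arntl and Tef) and 3 in a fit of the control groups alone, and ranged from 0 to 2 when each animal was left out. The 2 came without young control 3 (Arntl and Tef), and Cry1 alone was called without old control 2 or young control 1. With alpha-tocopherol the 3 calls became 0 with either covariate, 4 with array weights (Nr1d1 added) or no filter (the Cry1 probe set 94421_r_at added), and 3 to 4 when an animal was left out (Per1 added without alpha-tocopherol animal 5). With the mixed diet it was 2 to 3 in all settings run, Dbp and Cry1 were called in each, and Nr1d1 was added with array weights, with the 18S covariate and without mixed animal 2. Between the diets the 1 call became 0 with either covariate, with eBayes without trend and robust (adjusted p = 0.0501), in a fit of those 2 groups (adjusted p = 0.12) and 0 to 1 when animals were left out. Of the gene pairs, 1 passed with array measures removed (Cry1 and Nr1d1), and 0 to 1 passed when animals were left out (Cry1 and Nr1d1 without mixed animal 1 or 3, Dbp and Nr1d1 without mixed animal 4). With a replicate block the member counts were 0, 3, 2 and 1 for age, alpha-tocopherol, mixed diet and between diets, so it changed no count. The share of all tested probe sets called in each of these settings is not given here. A change in the member count therefore cannot be told from a change in calls across the whole array.

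Most single differences kept sign and side of the threshold (780 of 846 values). Sign changes were these. With array weights Clock with age was -0.012, and Cry2 with alpha-tocopherol -0.056. With the hybridization covariate Tef and Arntl with alpha-tocopherol were -0.19 and 0.27, Cry2 and Arntl with the mixed diet 0.030 and 0.11, and Cry1 and Arntl between the diets -0.027 and -0.16. With the 18S covariate Nr1d1 with alpha-tocopherol was -0.23, and Tef and Clock between the diets -0.18 and -0.12. Cry2 with alpha-tocopherol was -0.0012 without animal 3 of both control groups, and Cry2 with the mixed diet 0.073 without old controls 1 and 4. When each animal was left out, ranges that cross 0 were -0.11 to 0.047 (Cry2), -0.42 to 0.11 (Per1) and -0.22 to 0.031 (Arntl) with the mixed diet, -0.039 to 0.13 (Cry2) with alpha-tocopherol, and -0.43 to 0.097 (Dbp), -0.15 to 0.014 (Cry2), -0.025 to 0.15 (Clock) and -0.037 to 0.17 (Tef) between the diets. The causes were not tested.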
